A study of Mus musculus with 11 samples.

Results

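The genes described here encode the machinery that starts messenger RNA synthesis: 30 subunits of Mediator, 13 subunits of RNA polymerase II and 13 subunits of the general transcription factors TFIIA, TFIIB, TFIIE, TFIIF and TFIIH. They were chosen by symbol alone, as every protein-coding mouse gene named Med, Polr2 or Gtf2 with the number or letter of a subunit. The rule found 56 of the 21883 protein-coding genes on chromosomes 1 to 19, X and Y. The study profiled glands of the mouse stomach by ChIP-seq in 11 libraries, 8 of them for H3K27ac, an acetylated histone at active promoters and enhancers, and 3 labelled as H3K4me3, a trimethylated histone at promoters. For H3K27ac there were 4 groups of 2 libraries: wild type; Atp4bCre with Rosa26NICD (NICD below); the same alleles with Arid1aflox/+ (1-allele below); and the same alleles with Arid1aflox/flox (2-allele below). Every group other than wild type therefore carried both Cre and NICD, and wild type carried neither. Atp4bCre is a Cre recombinase driven by a gene of the acid-secreting parietal cell, NICD is the intracellular, active piece of Notch, and Arid1a encodes a subunit of the SWI/SNF chromatin remodelling complex. H3K4me3 had 1 library each for wild-type, NICD and floxed glands. For the floxed library the title and the genotype disagree on whether 1 or 2 alleles were floxed, so it was kept apart as "Arid1a-floxed". The ages of the mice are not given in the sources used here.

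RNA polymerase II copies every protein-coding gene, and it cannot find or open a promoter by itself. The general factors assemble with it at the start site, where TFIIH unwinds the DNA and carries the kinase that acts on the tail of the largest polymerase subunit. Mediator, built of head, middle and tail modules on the Med14 scaffold with a detachable kinase module, links activators bound at enhancers to this assembly.

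Each library was deposited as a list of peaks, called without a control in the 9 lists whose headers say so; how the 2-allele lists were called is not known. A gene was counted as called where a peak lay within 1 kb of either of its ends. The strength of a call is the percentile of its strongest peak within that library's own list, where values near 100 are the strongest peaks and 0 stands for no peak. The H3K27ac lists differed in length, with 20590 and 18360 peaks in wild type, 41405 and 25442 in NICD, 5165 and 7602 in the 1-allele group and 15362 and 14373 in the 2-allele group. For H3K4me3 the wild-type list had 17558 peaks, the NICD list 39420 and the floxed list 5175. Of the 6 H3K27ac libraries whose headers state a depth, the shallowest was the second NICD library, at 7.96 M filtered tags. The deepest was the first wild-type library, at 18.3 M. Depth is unknown for the 2-allele group. The first 1-allele library, which had the shortest list, held 16.6 M filtered tags. That is more than either NICD library, the first of which held 13.9 M. The second 1-allele library, at 9.76 M, lay between the NICD libraries. The 2 shortest H3K27ac lists were both of the 1-allele group, so list length and genotype cannot be told apart. In glands pooled for one library, fewer cells with a mark and less of it per cell cannot be told apart either. Of 14 gastric epithelial markers, Epcam was called in all 11 libraries and Atp4a, a proton pump subunit of parietal cells, in none. Atp4b, the parietal cell gene that drives Cre, was called for H3K27ac in both wild-type libraries and the first 1-allele library only. For H3K4me3 it was called in the NICD and Arid1a-floxed libraries. The H3K27ac libraries called 9 and 8 of these 14 in wild type, 9 and 5 in NICD, 4 and 1 in the 1-allele group and 5 and 3 in the 2-allele group. At most 2 of 7 blood cell markers and 2 of 8 markers of stroma, muscle and vessels were called in any H3K27ac library. Cd3e, Csf1r, Lyz2, Pdgfra, Pecam1 and Cdh5 were called in none. Ptprc was called in both NICD libraries and the first 2-allele library, and Spi1 in the second NICD and first 2-allele libraries. Cd79a was called in the first wild-type and first NICD libraries. Acta2 was called in the first wild-type and both NICD libraries, and Col1a1 in the first NICD library. For H3K4me3 the NICD library called 3 of 7 and 5 of 8 of these markers, against 0 and 0 in wild type. The part of these cells in the results was not tested.

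Most of the 56 genes carried H3K27ac near an end in wild-type, NICD and 2-allele glands, and a minority did in 1-allele glands. In wild type, 43 of 56 genes were called in each library (76.8%), against 43.0% and 40.8% of the 21827 other protein-coding genes. In NICD glands 53 and 51 genes were called (94.6% and 91.1%), against 52.9% and 47.1% of the others. In 1-allele glands 14 and 27 genes were called (25.0% and 48.2%), against 16.1% and 25.7% of the others. In 2-allele glands 48 and 46 genes were called (85.7% and 82.1%), against 42.5% and 41.1% of the others. With whole lists of unequal length, the 2 NICD libraries thus held the most called members and the 2 1-allele libraries the fewest, and the 4 groups did not overlap. With every list cut to its 5165 strongest peaks the groups overlapped: 25 and 18 members were called in wild type, 22 and 21 in NICD, 14 and 21 in 1-allele and 26 and 25 in 2-allele glands. The shares of other genes in these cut lists were 19.0% and 18.9%, 21.1% and 20.3%, 16.1% and 18.8%, and 21.6% and 21.1%, in the same order. With whole lists, the member means were 76.8% ± 0 in wild type, 92.9% ± 2.53 in NICD, 36.6% ± 16.4 in 1-allele and 83.9% ± 2.53 in 2-allele glands (SD, n = 2 libraries each). The same order of the NICD and 1-allele groups held for the other genes, at 50.0% ± 4.08 and 20.9% ± 6.81, with 41.9% ± 1.55 in wild type and 41.8% ± 0.988 in 2-allele glands.

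Part of the gap between the 56 genes and all others lay in genes with no H3K4me3 peak in any library. Of the 56, 54 had an H3K4me3 peak in at least 1 library, against 13863 of the 21827 others. Nearly all of these other genes (99.9%) were called in the NICD library, whose H3K4me3 list was the longest. Among genes with H3K4me3, the members were called in 98.1% and 94.4% in NICD glands against 81.7% and 73.8% of others, and in 79.6% of both wild-type libraries against 67.3% and 63.9%. In 1-allele glands the members stood at 25.9% and 50.0% against 25.3% and 40.5% of others, so in the first of these libraries the shares were alike. In 2-allele glands the members stood at 88.9% and 85.2% against 66.7% and 64.6% of others. The median percentile of the called members was 85.6 and 76.0 in NICD, against 83.8 and 75.5 for called other genes. In the 1-allele libraries it was 39.2 and 57.5 against 52.1 and 55.1, lower than other genes in the first and higher in the second.

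**Figure D1:**
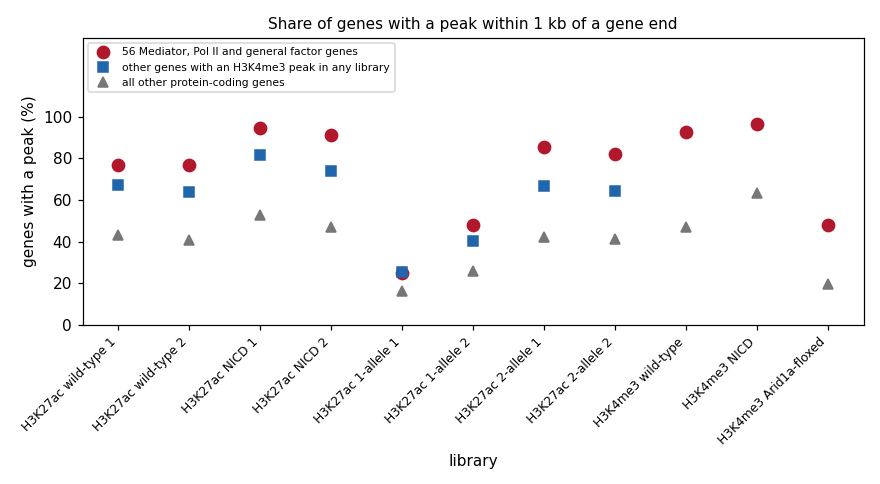
Share of genes with a peak within 1 kb of a gene end (vertical axis, percent) in each of the 11 libraries (horizontal axis), with 1 point per library for the 56 genes (red), other genes with an H3K4me3 peak in any library (blue, H3K27ac libraries only) and all other protein-coding genes (grey). For H3K27ac the red points run from 25.0% and 48.2% in 1-allele glands to 94.6% and 91.1% in NICD glands; over all 11 libraries they lie above the grey points in every library.

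A core of 13 of the 56 genes (23.2%) was called in all 8 H3K27ac libraries, against 13.3% of other genes: Med7, Med13, Med13l, Med15, Med21, Med26, Med31, Polr2c, Polr2m, Gtf2a2, Gtf2f2, Gtf2h1 and Gtf2h2. Another 13 were called in 7 libraries and 12 in 6. At the other end, Med10, Med12l and Gtf2a1l had no H3K27ac peak at an end in any library (5.36% of members), against 45.6% of other genes. Polr2e, Med24, Polr2g and Gtf2h3 were called in only 2 libraries each.

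Promoters are printed for some members at each extreme of this range, so that starts with many and few H3K27ac calls can be read side by side. Of the members with few or no calls, Med12l and Gtf2h3 have annotated starts too and are not printed. They come from RefSeq (GRCm38.p6), whose promoter table matched 48 of the 56 members; each is the 200 bases before an annotated start, 5′ to 3′ along the gene. Capitals mark matches, on either strand, to short motifs that promoters often hold. The GC box was searched as the letters GGGCGG. The motif of the ETS factors was searched as CCGGAAG, and the E-box, a site of helix-loop-helix factors, as CACGTG. The CCAAT box and the TATA element with the letters TATAAA were searched as well, and matches could overlap. Med15, Polr2m and Gtf2a2 were the highest members of Mediator, the polymerase and the general factors among those called in all 8 libraries.
Med15 (chr16:17722948-17723147, minus strand): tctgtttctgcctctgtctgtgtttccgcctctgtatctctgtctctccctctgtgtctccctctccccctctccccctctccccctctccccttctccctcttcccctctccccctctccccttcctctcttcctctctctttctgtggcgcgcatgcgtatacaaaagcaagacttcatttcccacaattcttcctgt
Polr2m (chr9:71485984-71486183, minus strand): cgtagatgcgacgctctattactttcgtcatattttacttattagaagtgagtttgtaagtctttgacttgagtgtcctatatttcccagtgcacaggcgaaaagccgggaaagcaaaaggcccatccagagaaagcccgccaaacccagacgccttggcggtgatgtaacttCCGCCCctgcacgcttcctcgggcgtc
Gtf2a2 (chr9:70012348-70012547, plus strand): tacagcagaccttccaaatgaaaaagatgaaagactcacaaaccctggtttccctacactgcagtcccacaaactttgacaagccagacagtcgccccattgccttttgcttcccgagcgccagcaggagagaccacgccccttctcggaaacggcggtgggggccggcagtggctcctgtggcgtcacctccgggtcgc
Polr2e was called in 2 H3K27ac libraries and Gtf2a1l in none, although Polr2e had H3K4me3 peaks at 91.7 in wild type and 96.9 in NICD. Med10 has a pair of annotated starts. The first is at its unmarked gene end and the second carried peaks in every library. Gtf2a1, a gene whose call turned on which start was used, is shown at its upstream start.
Polr2e (chr10:80039660-80039859, minus strand): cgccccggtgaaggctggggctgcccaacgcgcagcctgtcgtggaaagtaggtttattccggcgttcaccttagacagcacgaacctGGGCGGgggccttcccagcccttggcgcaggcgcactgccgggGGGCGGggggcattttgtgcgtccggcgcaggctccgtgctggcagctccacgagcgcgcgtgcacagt
Gtf2a1l (chr17:88668460-88668659, plus strand): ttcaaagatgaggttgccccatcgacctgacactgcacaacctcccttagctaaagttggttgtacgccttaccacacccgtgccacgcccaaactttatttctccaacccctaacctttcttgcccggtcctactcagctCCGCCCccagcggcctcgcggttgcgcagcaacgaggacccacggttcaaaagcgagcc
Med10 (chr13:69802170-69802369, plus strand): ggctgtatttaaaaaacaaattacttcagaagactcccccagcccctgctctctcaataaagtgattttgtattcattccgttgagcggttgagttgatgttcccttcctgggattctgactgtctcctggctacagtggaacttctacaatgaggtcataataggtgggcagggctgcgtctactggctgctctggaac
Med10 (chr13:69809682-69809881, plus strand): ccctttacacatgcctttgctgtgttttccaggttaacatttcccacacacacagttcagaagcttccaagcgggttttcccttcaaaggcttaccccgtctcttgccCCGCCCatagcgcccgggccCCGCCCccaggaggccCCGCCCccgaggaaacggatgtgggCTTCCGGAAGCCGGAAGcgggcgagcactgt
Gtf2a1 (chr12:91590488-91590687, minus strand): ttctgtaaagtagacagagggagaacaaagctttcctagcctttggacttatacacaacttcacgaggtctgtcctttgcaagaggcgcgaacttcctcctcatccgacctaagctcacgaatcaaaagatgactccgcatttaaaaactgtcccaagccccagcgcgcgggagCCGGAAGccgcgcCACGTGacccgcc
Med15, the tail subunit that contacts activators such as the sterol-responsive factors, and Gtf2a2 held none of these motifs in the printed stretch. The other annotated start of Med15, at 17722900, had 2 ETS motifs before it. Polr2m held 1 GC box, Polr2e 2 and Gtf2a1l 1. A GC box was thus present in promoters with H3K27ac calls in all, few and no libraries alike. The unmarked first start of Med10 held no motif, whereas its second start held 3 GC boxes and 3 ETS motifs, the latter adjoining or overlapping in a single stretch of capitals.

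Over the whole 300-base windows in the table (250 bases before to 50 after a start, 1 window per gene), the ETS motif was found in 14 of 48 members (29.2%). It was found in 11.8% of the 17443 other promoters and in 16.9% of the 11050 others with an H3K4me3 peak. Med4, Med6, Med14, Med15, Med17, Med18, Med19, Polr2c, Polr2f, Polr2j, Gtf2a1, Gtf2a2, Gtf2f1 and Gtf2h2 were the 14. Genes with more than 1 annotated start were searched at the first listed only. For Med10 that is the unmarked start, so the ETS motifs and GC boxes of its other start are not counted. The GC box was in 62.5% of members, 46.3% of others and 64.7% of others with H3K4me3, and the E-box in 16.7%, 7.88% and 9.88%. The TATA element was in 14.6% of members, 13.3% of others and 7.11% of others with H3K4me3. The CCAAT box was in 33.3%, 39.0% and 38.8%. The cyclic AMP response element TGACGTCA was in 4.17%, 2.34% and 3.19%. No member held the NRF1 or the YY1 motif, which were in 1.32% and 0.975% of other promoters. The members' windows had a median observed-over-expected CpG ratio of 0.871, against 0.574 in others and 0.751 in others with H3K4me3. These are matches of letters and were not tested for binding.

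The modules of Mediator hold few genes each, and their counts in 1-allele glands stand beside 16.1% and 25.7% of other genes called there; differences between modules were not tested. Of the 8 head genes, 6 and 6 were called in wild type, 8 and 8 in NICD, 7 and 6 in 2-allele glands, and 1 and 1 in 1-allele glands. Med11 was the highest of them, with percentiles of 95.3 and 87.4 in wild type, 98.9 and 99.1 in NICD, 0 and 77.7 in 1-allele and 97.2 and 89.995 in 2-allele glands. Med17, a central head subunit, was the head gene called in the other 1-allele library, at 34.4. Med18 was the lowest, at 0 in both wild-type and both 1-allele libraries, 62.0 and 36.6 in NICD, and 0 and 17.6 in 2-allele glands. No head gene was called in all 8 libraries.

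The 4 genes of the head-tail junction, Med27, Med28, Med29 and Med30, were present in all 4 NICD and 2-allele libraries and missing from the 1-allele lists. Med30 was the highest of them, at 96.8 and 95.9 in wild type, 96.0 and 71.9 in NICD, 0 and 0 in 1-allele and 88.6 and 97.5 in 2-allele glands. Med29 was the lowest, at 1.53 and 0 in wild type and 78.8 and 46.2 in NICD. Med29 shares its start region with Paf1, an elongation factor gene, and both genes were scored on the same peaks.

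Of the 8 middle genes, 7 were called in each wild-type, NICD and 2-allele library, and 4 and 6 in 1-allele glands. Med7 was the highest, at 96.6 and 94.8 in wild type, 98.4 and 97.8 in NICD, 74.3 and 82.2 in 1-allele and 95.6 and 97.0 in 2-allele glands. Med21, Med26 and Med31 were the other middle genes called in all 8 libraries. Med4 was the only middle gene found in the NICD lists and missing from the 1-allele lists, and Med10 the only one called in none at its gene ends. The scaffold gene Med14 was called in 7 libraries and was 0 in the first 1-allele library, with 82.4 and 44.5 in wild type, 78.3 and 79.8 in NICD, 15.4 in the second 1-allele library and 40.2 and 18.1 in 2-allele glands.

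In the tail, Med15 was the highest gene and Med24 the lowest. Med15 was at 85.1 and 95.2 in wild type, 99.8 and 99.7 in NICD, 89.8 and 97.1 in 1-allele and 98.2 and 99.0 in 2-allele glands, and thus was among the strong peaks of every H3K27ac list. Med24, another tail gene, was called only in NICD, at 43.7 and 28.8. Of the kinase module, Med13 and Med13l were called in all 8 libraries with mean percentiles of 80.8 and 81.4, Med12 in 6, and its paralogue Med12l in none. Med12, which activates the module's kinase, was at 0 and 30.4 in wild type, 68.2 and 58.4 in NICD, 0 and 26.4 in 1-allele and 60.5 and 7.32 in 2-allele glands.

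**Figure D2:**
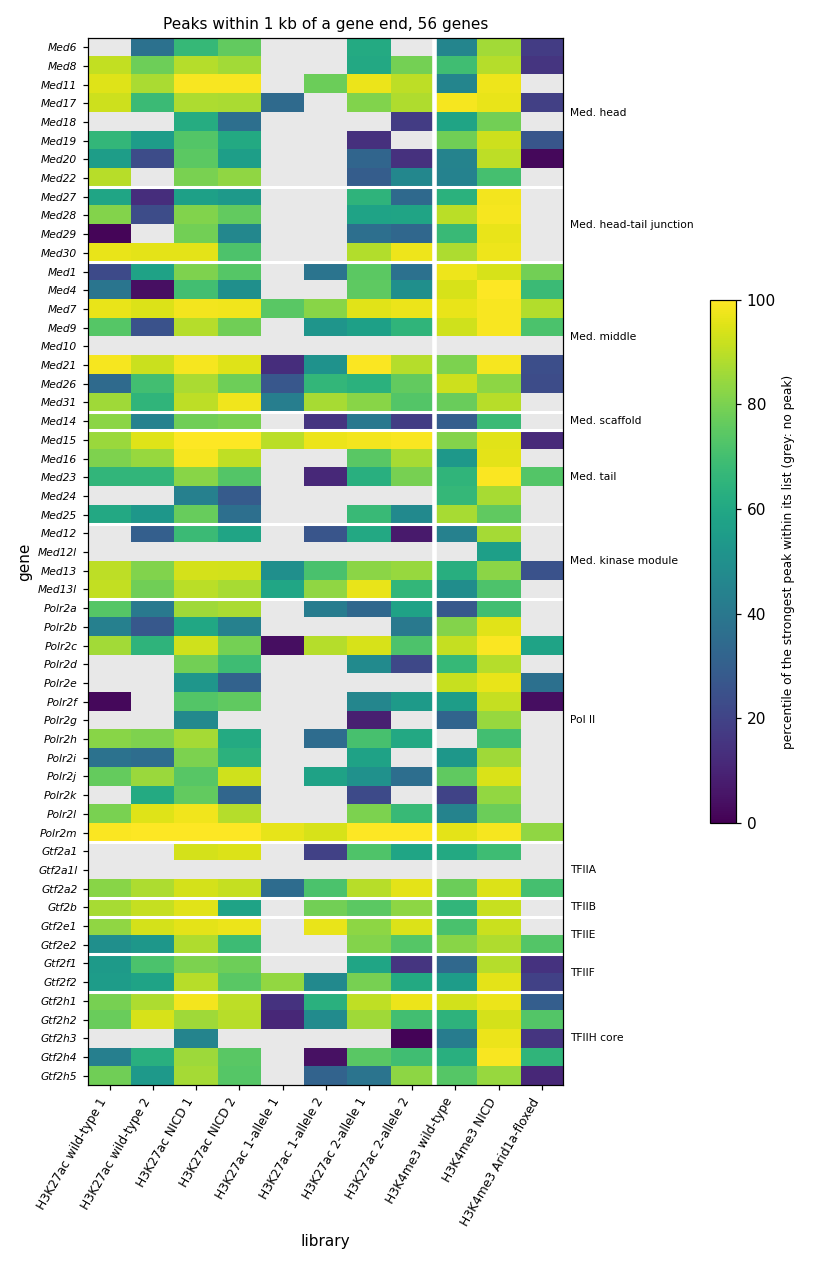
Within-list percentile of the strongest peak near each of the 56 genes (rows, by role) in each of the 11 libraries (columns), where 0 is no peak. The 1-allele columns are empty (grey) for the 4 head-tail junction genes and for 7 of 8 head genes in each library. Med7, Med15 and Polr2m lie toward the bright, high end of the colour scale in all H3K27ac columns.

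The 13 polymerase genes were nearly all called in NICD glands, 13 and 12 of them, against 9 and 9 in wild type, 2 and 5 in 1-allele and 11 and 9 in 2-allele glands. Polr2m was the highest member of all 56, at 99.3 and 99.7 in wild type, 99.96 and 99.7 in NICD, 96.1 and 93.8 in 1-allele and 99.9 and 99.9 in 2-allele glands. Its product binds the polymerase and holds back initiation until Mediator is present. By the authors' scores its peak stood 11.9-fold and 14.9-fold over local background in wild type, 16.9-fold and 13.9-fold in NICD and 9.62-fold and 7.96-fold in 1-allele glands. Polr2c, a core assembly subunit, was the other polymerase gene called in all 8 libraries, though it was at 3.54 in the first 1-allele library and 88.8 in the second.

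Polr2a, which encodes the largest, catalytic subunit, was called in 7 libraries, at 73.6 and 40.3 in wild type, 85.7 and 87.5 in NICD, 0 and 41.9 in 1-allele and 33.2 and 57.7 in 2-allele glands. Polr2b, the other large subunit of the active site, was at 43.6 and 27.3 in wild type, 59.6 and 44.0 in NICD, 0 in both 1-allele libraries, and 0 and 40.4 in 2-allele glands. Polr2d and Polr2g, whose products form the stalk, were both uncalled in wild type and in 1-allele glands. Polr2g was the lowest of the role, at 47.1 in the first NICD library, 8.72 in the first 2-allele library and 0 in the other 6. Among Polr2e, Polr2f, Polr2h, Polr2k and Polr2l, whose subunits all 3 nuclear RNA polymerases share, Polr2h alone was called in a 1-allele library, at 35.4 in the second. The summit of that peak lay upstream of Polr2h, and an end of Clcn2 lies within 1 kb of a Polr2h start.

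The general factors were called in 10 and 10 of 13 genes in wild type, 12 and 11 in NICD, 4 and 9 in 1-allele and 11 and 12 in 2-allele glands. In TFIIA, which steadies the TATA-binding protein on DNA, Gtf2a2 was called in all 8 libraries at 35.5 to 95.8. Gtf2a1l, which encodes a germ-cell form of its large subunit, was called in none. Gtf2b, which bridges promoter and polymerase, was at 0 in the first 1-allele library and between 58.0 and 95.5 in the other 7. In TFIIE, Gtf2e1 reached 96.5 in the second 1-allele library and was 0 in the first, while Gtf2e2 was 0 in both. In TFIIF, Gtf2f2 was called in all 8 libraries, at 83.9 and 47.3 in 1-allele glands, and Gtf2f1 in 6. In the TFIIH core, Gtf2h1 and Gtf2h2 were called in all 8 libraries; Gtf2h1 was at 14.7 and 63.4 in 1-allele glands and at 79.6 to 98.2 elsewhere. Gtf2h3 was the lowest, at 44.9 in the first NICD library, 0.911 in the second 2-allele library and 0 in the other 6.

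The first comparison asked which genes carried H3K27ac with active Notch and not in wild type. A total of 5 of 56 members had peaks in each NICD library but no wild-type library: Gtf2a1, Polr2d, Med18, Polr2e and Med24. Among other genes the share was 3.82%. Of members called in both NICD libraries this was 9.80%, against 8.17% of other genes so called, which is a similar share. No member had peaks in each wild-type library but no NICD library, against 0.115% of others. Gtf2a1, the gene of the large TFIIA subunits, was at 93.7 and 94.7 in NICD; Polr2d was at 78.7 and 69.0; Polr2e, a subunit at the polymerase's DNA-gripping jaw, was at 52.6 and 31.5. All 5 had an H3K4me3 peak in wild type, at percentiles between 58.5 and 91.7. With lists cut to the same 14373 strongest peaks the count was 4, against 2.37% of other genes, and only Gtf2a1 and Polr2d were among these 5. With 5165 peaks the count was 1 (Gtf2a1), against 1.89% of others. Without the first or without the second wild-type library it was 8. Gtf2a1 and Polr2e no longer separated NICD from wild type with a window of 2.5 kb, which left 3.

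The next comparison asked what was missing where 1 allele of Arid1a was floxed. Of the 56 genes, 23 had peaks in each NICD library but no 1-allele library, and the background among other genes was 18.7%. This was 45.1% of the members called in both NICD libraries, against 40.1% of other genes so called. No member showed the opposite pattern, against 0.00916% of others. By role the 23 comprised 6 of 8 head genes (Med6, Med8, Med18, Med19, Med20, Med22), all 4 junction genes, Med4 of the middle, Med16, Med24 and Med25 of the tail, 7 polymerase genes (Polr2b, Polr2d, Polr2e, Polr2f, Polr2i, Polr2k, Polr2l), Gtf2e2 and Gtf2f1.

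The 10 of these with the largest difference in mean percentile had strong peaks in NICD. Med16, a tail subunit, was at 98.7 and 90.3 in NICD, 80.7 and 84.7 in wild type and 74.2 and 87.1 in 2-allele glands. Polr2l was at 98.0 and 89.1 in NICD, 79.8 and 95.2 in wild type and 80.1 and 67.4 in 2-allele glands. Med8, a head subunit, was at 88.9 and 86.2 in NICD, and Med30 at 96.0 and 71.9. These genes were thus called in all 6 libraries outside the 1-allele group. Med22 was at 80.1 and 83.5 in NICD, Gtf2f1 at 80.3 and 77.8, Med28 at 81.0 and 76.0, and Gtf2e2 at 88.2 and 68.5. Polr2f was at 73.2 and 75.5 and Polr2d at 78.7 and 69.0, and both were at or near 0 in wild type as well. All 10 were called in both 2-allele libraries, though not always by a peak at the same place. The strongest Med22 peak was centred at -351 and -333 bp from its start in NICD (negative is upstream). In 2-allele glands it was centred at 251 and 236 bp. For Gtf2f1 the centre was at 247 bp in the first NICD library and -492 bp in the second. Percentiles of such genes do not follow 1 peak across libraries.

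Members called in 1-allele glands were mostly those with strong peaks in NICD. The 13 members called in both 1-allele libraries had a median NICD percentile of 93.4, and the 23 called in neither had 71.5. For other genes called in both NICD libraries the medians were 92.7 and 65.1. Of the 51 members called in both NICD libraries, 8 had a mean NICD percentile under 60 and none of these was called in a 1-allele library, and of the 13 above 90, 8 and 11 were. Other genes above 90 were called in 72.3% and 91.1%, against 61.5% and 84.6% of the members. Med16, Polr2l and Polr2m mark the spread at the top of the range, where strong NICD peaks were present and the 1-allele call was made for Polr2m only.

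**Figure D3:**
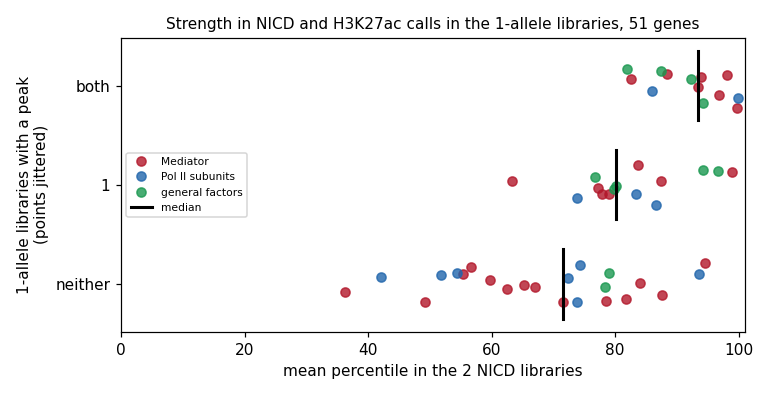
Mean within-list percentile in the 2 NICD libraries (horizontal axis) for the 51 members called in both, set against how many 1-allele libraries called the gene (vertical axis), with 1 point per gene (jittered vertically, coloured by complex) and a bar at each median. Genes called in both 1-allele libraries have a median of 93.4 and genes called in neither 71.5, with Med16 and Polr2l at the far right of the uncalled genes.

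The lists of the 1-allele group were the shortest, and shorter NICD lists gave lower counts. With the NICD lists cut to 14373 peaks, still longer than the 1-allele lists, the count was 16, against 11.1% of other genes. With all lists at 5165 peaks it was 4 (Med8, Med16, Polr2l and Gtf2a1), against 2.37% of others, and the second NICD and the second 1-allele library then called the same share of members, 37.5%. Without the second 1-allele library the count was 37, since the first 1-allele library called 14 members.

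With both alleles of Arid1a floxed, few members had calls that separated these glands from NICD. Differences in percentile short of that are not counted here and were not tested. Polr2e and Med24 (2 of 56) had peaks in each NICD library but no 2-allele library, against 3.80% of other genes. That is 3.92% of members called in both NICD libraries and 8.13% of other genes so called. No member had peaks in each 2-allele library but no NICD library, against 0.0229% of others. Polr2e and Med24 were also absent from wild type and 1-allele glands, so their H3K27ac peaks were listed in the NICD libraries only. The count was 0 with 14373 peaks per list, against 0.779% of other genes, and 6 or 4 without the first or the second 2-allele library.

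Between the floxed groups, 15 of 56 genes had peaks in each 2-allele library but no 1-allele library, against 11.9% of other genes: Med4, Med8, Med16, Med20, Med22, Med25, Med27, Med28, Med29, Med30, Polr2d, Polr2f, Polr2l, Gtf2e2 and Gtf2f1. None was called the other way round, against 0.0412% of others. This was 34.9% of the members called in both 2-allele libraries and 30.8% of others so called. Of the 10 with the largest difference in mean percentile, Med30 was at 88.6 and 97.5 in 2-allele glands, Gtf2e2 at 81.5 and 73.5, and Med4, which lies in the middle module, at 75.4 and 49.8. Med25, a tail subunit bound by viral and cellular activators, was at 67.9 and 47.5, and Med27 at 65.0 and 34.2. Med8 was at 60.4 and 79.0, Med28 at 57.9 and 58.5, and Polr2f at 45.7 and 54.5. All 10 were at 0 in both 1-allele libraries. The 1-allele libraries are shared with the NICD comparison, so the lists of genes are not independent. With 5165 peaks per list the count was 5, against 2.81% of other genes, and without the second 1-allele library it was 29.

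In all, 37 members were called in every wild-type, NICD and 2-allele library, against 34.0% of other genes. Of these, 11 were in neither 1-allele library (29.7%, against 24.1% of other genes called in the same 6 libraries, or 8.19% of all other genes): Med4, Med8, Med16, Med20, Med25, Med27, Med28, Med30, Polr2l, Gtf2e2 and Gtf2f1. They span the head, junction, middle and tail of Mediator, the polymerase, TFIIE and TFIIF. They include no gene of the scaffold (1 gene), kinase module (4), TFIIA (3), TFIIB (1) or TFIIH core (5). These roles hold few genes, and differences between roles were not tested.

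**Figure D4:**
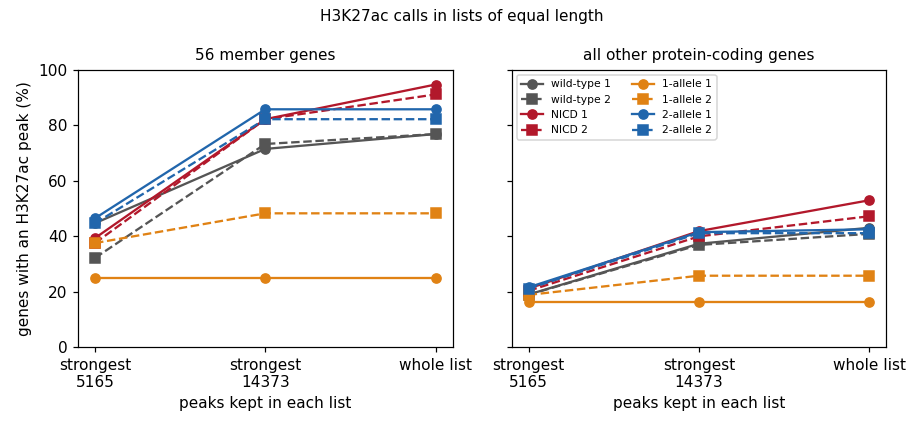
Share of genes with an H3K27ac peak (vertical axis, percent) when each list is kept whole or cut to its 14373 or 5165 strongest peaks (horizontal axis), with the 56 members in the left panel, all other protein-coding genes in the right panel and 1 line per library. Members in NICD fall to a mean of 38.4% at 5165 peaks and those in 2-allele glands to 45.5%, while the first 1-allele library stays at 25.0%.

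A test over all 4 groups was run on the percentiles of every gene with an H3K27ac peak in at least 1 library, which 53 of the 56 members had. No member passed at an adjusted p under 0.05 by the two-sided exact permutation test, nor did any of the 11927 genes (0.00%). At an unadjusted p under 0.05 there were 15 members, and the share over all genes tested was 25.3%. The smallest p that 105 divisions of 8 libraries into 4 pairs can give is 0.00952, and the smallest adjusted p was 0.160. Gtf2h4, a TFIIH core subunit, was the member at that smallest exact permutation p, with 43.2 and 62.9 in wild type, 85.4 and 74.3 in NICD, 0 and 4.62 in 1-allele and 74.2 and 69.4 in 2-allele glands. Its first NICD value came from a peak at its other end; at its start the value was 72.0. A comparison of 2 libraries with 2 cannot go below p = 0.333 by an exact permutation test, so none is given for the pairs of groups.

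H3K4me3 was found near most members in wild type and NICD and near fewer in the floxed library. It was called near 52 of 56 genes in wild type, 54 in NICD and 27 in Arid1a-floxed glands, against 47.3%, 63.4% and 19.4% of other genes. Med10 and Gtf2a1l had none at their gene ends in any library, though Gtf2a1l had an H3K4me3 peak at its annotated start in NICD, at 37.6. Med12l had it in NICD only, at 56.6, and Polr2h in NICD only, at 69.9, although Polr2h was called for H3K27ac in both wild-type libraries. Those H3K27ac summits lay upstream of Polr2h, on the side it shares with Clcn2 or beyond, and the H3K4me3 summit lay downstream of the start. In wild type, 39 of the 52 members with H3K4me3 also carried H3K27ac in both libraries (75%, against 76.9% of other genes), and 7 in neither: Med18, Med24, Polr2d, Polr2e, Polr2g, Gtf2a1 and Gtf2h3. In NICD, 51 of 54 carried H3K27ac in both libraries (94.4%, against 73.3% of others), and Med12l alone in neither. The 5 members called only in NICD against wild type were all among those 7, so by gene ends the promoter mark was present in wild type where the acetylation call was not.

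In the Arid1a-floxed library, 11 of the 27 members with H3K4me3 were called for H3K27ac in both 1-allele libraries (40.7%, against 39.2% of other genes with H3K4me3 there) and 10 in neither (37.0% against 28.5%). Among those 10 were Gtf2e2 at 73.1 and Med4 at 68.1, which thus had strong H3K4me3 peaks in a short list. Med13l and Med31 went the other way, with H3K27ac in both 1-allele libraries and no H3K4me3 call. With 1 H3K4me3 library per genotype these values have no replicate check.

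Measured from annotated starts, most peaks lay downstream of the start, as they did for other genes. Depending on the H3K27ac library, 68.9% to 86.7% of member peaks were centred downstream, against 74.3% to 77.5% for other genes. The median H3K27ac peak centre of the members was 149 to 186 bp downstream of the start, depending on the library, against 172 to 209 bp for other genes. The peak centre is the summit, or the midpoint in the 2-allele lists, which give no summit. For H3K4me3 the medians were 192 to 194 bp, against 204 to 264 bp. Among H3K27ac libraries, member peaks were widest in the first NICD library (median 636 bp, others 684 bp) and narrowest in the first 1-allele library (median 234 bp, others 254 bp). Of the 48 members with an annotated start, 15 had the end of another protein-coding gene within 1 kb of it. Among them were Med20 with Bysl, Med22 with Rpl7a, Polr2h with Clcn2, Polr2l with Tspan4, Gtf2h1 with Hps5 and Gtf2a2 with Bnip2. Peaks at these shared ends cannot be assigned to 1 gene.

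**Figure D5:**
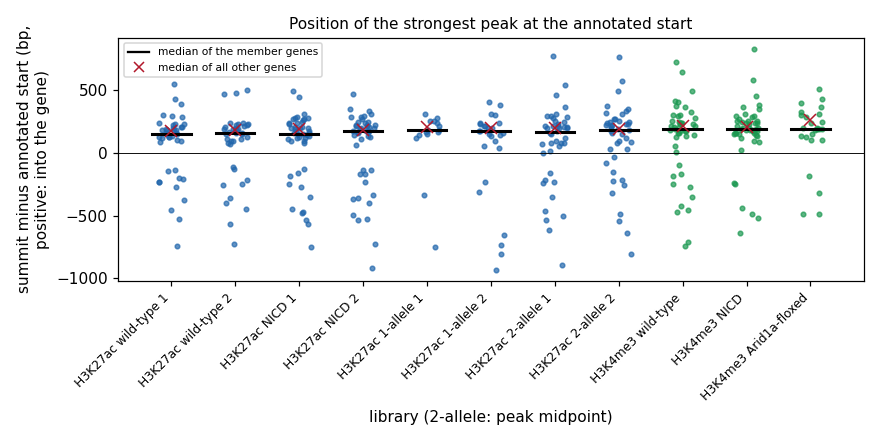
Position of the strongest peak's centre relative to the annotated start (distance in bp, positive downstream) for the members in each library, with 1 point per gene, a bar at the members' median and a cross at the median of all other genes (peak midpoint in the 2-allele lists). Member medians lie 149 to 194 bp downstream of the start in all 11 libraries.

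Values of Med10, Gtf2a1, Gtf2a1l, Gtf2h3 and Gtf2h4 differed when annotated starts were used in place of gene ends, and the H3K27ac calls of Med10 and Gtf2a1 did. Med10 (chr13:69802348-69816102), a middle subunit, had no peak at either end, and its second annotated start at position 69809882 carried a peak in all 11 libraries. There its H3K27ac percentiles were 82.4 and 88.4 in wild type, 93.1 and 75.6 in NICD, 79.4 and 50.8 in 1-allele and 88.4 and 11.7 in 2-allele glands. Its H3K4me3 percentiles were 95.9, 99.8 and 78.2 in wild type, NICD and Arid1a-floxed glands. This is the start whose printed stretch holds the ETS motifs and GC boxes, so by annotated starts Med10 joins the genes called in every library.

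Gtf2a1 (chr12:91555262-91590487) lies on the minus strand with annotated starts at 91590487 and 91589649. Its wild-type H3K27ac peaks ran from 91588961 to 91589397 and from 91588965 to 91589361, at the downstream start. They ended 1090 and 1126 bp from the gene end, just outside the 1 kb window. The NICD peaks there were 1172 and 901 bp wide and reached to 584 and 619 bp, inside the window. By annotated starts the gene was at 67.6 and 88.2 in wild type and 93.7 and 94.7 in NICD, so it was called in both groups. At the upstream start no H3K27ac peak was listed in wild type, although an H3K4me3 peak was, at 56.6. There the strongest H3K27ac peak was at 84.1 in the first NICD library and 20.7 in the second, 72.3 and 58.7 in the 2-allele libraries, and 19.5 in the second 1-allele library.

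Lists of other initiation and elongation genes also had their fewest calls in 1-allele glands, as did all other protein-coding genes. For the genes of Mediator's kinases and cyclin C this held in the second 1-allele library only. None of these differences was tested. Of 15 TFIID genes, 11 and 12 were called in wild type, 14 and 13 in NICD, 3 and 10 in 1-allele and 12 and 12 in 2-allele glands. Of 21 pausing and elongation genes, 20 and 18, 21 and 21, 8 and 14, and 21 and 21 were called in the same order. Of 5 genes for the kinase and helicases of TFIIH, 3 and 3, 4 and 3, 0 and 1, and 4 and 3 were called. The 3 genes for Mediator's kinases and cyclin C were called in every H3K27ac library but the second 1-allele library, which called 2. Taf8, a TFIID subunit, was the gene of these lists called in both NICD libraries (87.1 and 54.4) and in no library of the other groups. Ell, an elongation factor, was also called in NICD (68.5 and 25.3) and not in wild type, but was at 21.0 and 27.5 in 2-allele glands. Proteasome genes, a list of 40 from another essential complex, were called in 87.5% and 80.0% in wild type, 92.5% and 90% in NICD, 22.5% and 50.0% in 1-allele and 85.0% and 87.5% in 2-allele glands.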

How the data were processed

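H3K27ac (8 libraries) and H3K4me3 (3) were measured by ChIP-seq in fixed, pooled epithelial pellets of mouse stomach glands; the protocol in the labels names an H3K27ac antibody, and no source used here gives the one for H3K4me3. Per the submitters' processing notes, Bowtie2 and MACS2 were used with GRCm38 (mm10). For 9 of the lists the authors ran MACS 2.0.10.20131216, per the file headers, library by library and without a control, with a local background of 10000 bp and q-values cut at 0.05; the human setting was used, with 2.7 Gb as effective genome size. The deposited lists give each peak's pileup signal, fold enrichment, −log10 q-value and −log10 p-value, all the authors' own. Both 2-allele lists hold positions only. They were ranked by file order: 93.7% and 92.8% of their first 10% overlapped a peak of the second 1-allele library, against 8.72% and 11.3% of their last 10%. Other lists were ranked by −log10 q-value, then fold.

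Peaks were assigned in Python 3.11.15 to genes of the RefSeq table (GRCm38.p6). Percentiles were tested per gene by an exact permutation of the sum of squares between groups, with Benjamini-Hochberg adjustment over 11927 genes. On simulated percentiles of 11927 genes over the 4 groups, 100% of 200 genes with all groups apart reached the smallest p, and 7.5% of 200 with 1 group shifted. In both cases 0 of the 200 passed an adjusted p under 0.05 by this test. With 5963 genes changed, 5963 passed with all groups apart and 0 with 1 group shifted. A count of 0 members therefore does not show that no member differed. Simulated libraries of a group differed little, unlike real pairs such as Med11 at 0 and 77.7 in 1-allele glands. A pool of pellets does not show that libraries came from separate animals, so p-values measure only the spread between libraries. Members and lists were chosen with earlier results of these data known. Named were members that separate 2 groups (values for at most 10 per comparison), the highest and lowest of each role, and members called in no library; others were named after their values were seen. Alternatives changed the window, gene end, list length, peak midpoint and libraries.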

Additional observations from a re-analysis of the deposited data

How the results depend on the processing

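With lists cut to 5165 peaks, the members called in both libraries of one group and neither of the other numbered 1 for NICD over wild type, 1 for wild type over NICD (Polr2h), 4 for NICD over 1-allele, 1 for 1-allele over NICD (Med26), 0 for NICD over 2-allele, 1 for 2-allele over NICD (Gtf2h4) and 5 for 2-allele over 1-allele. Among other genes the shares were 1.89%, 1.00%, 2.37%, 0.756%, 1.18%, 1.36% and 2.81%, in the same order. With this cut the mean shares of members called were 38.4% in wild type, 38.4% in NICD, 31.2% in 1-allele and 45.5% in 2-allele glands. Cut to 14373 peaks, NICD over 2-allele was 0 and the shares were 72.3% in wild type, 82.1% in NICD and 83.9% in 2-allele glands, so 2-allele glands were no longer below NICD; the 1-allele lists are shorter than that and stayed whole. Within 2.5 kb, NICD over wild type was 3 and the wild-type share 81.2%; by annotated starts the share was 80.4%. Leaving out 1 library at a time gave 5 to 8 members for NICD over wild type, 23 to 37 for NICD over 1-allele, 2 to 6 for NICD over 2-allele and 16 to 29 for 2-allele over 1-allele. It gave shares of 91.1% to 94.6% in NICD, 25.0% to 48.2% in 1-allele and 82.1% to 85.7% in 2-allele glands. By peak midpoint the same 5, 23, 2 and 15 members separated these groups. The exact permutation test called 0 members at an adjusted p under 0.05 under every setting. With the replicate block, where labels were permuted only within a replicate number, the count was 0 and the smallest exact p 0.0417. With the 6 scored libraries it was 0 and the smallest exact p 0.0667, which cannot pass, so these counts of 0 say nothing about stability. The cause of each change was not tested, apart from fewer peaks in a cut list. A missing call is not a missing mark: the authors' threshold, depth and list length set what could be called. Both 1-allele lists were short, though the first came from more filtered tags (16.6 M) than either NICD library. The second (9.76 M) came from fewer than the first NICD library and more than the second. The part of depth in the missing calls was not tested.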

Other observations

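Genes of the other RNA polymerases were counted beside 43.0% and 40.8% of other genes in wild type, 52.9% and 47.1% in NICD, 16.1% and 25.7% in 1-allele and 42.5% and 41.1% in 2-allele glands. Of 10 RNA polymerase III genes, 9 and 7 were called in wild type, 10 and 10 in NICD, 2 and 6 in 1-allele and 8 and 9 in 2-allele glands. Polr3a, the largest subunit of that enzyme, was called in both NICD libraries (67.6 and 74.3) and neither 2-allele library, and was at 52.7 and 0 in wild type. Of 5 RNA polymerase I genes, 3 and 3 were called in wild type, 5 and 4 in NICD, 0 and 3 in 1-allele and 4 and 4 in 2-allele glands. Polr1b was at 66.8 and 49.1 in NICD, 0 in wild type and 1-allele glands, and 51.6 and 86.7 in 2-allele glands. Of 100 cytosolic ribosomal protein genes, 79 and 76 were called in wild type, 87 and 85 in NICD, 36 and 49 in 1-allele and 79 and 81 in 2-allele glands.

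Libraries of a group differed most in the 1-allele group, where 15 of the 28 members called in either library were called in 1 only (53.6%, others 52.3%). In NICD this was 2 members, Polr2g and Gtf2h3 (3.77%, others 12.3%), in wild type 6 (13.0%, others 17.7%) and in 2-allele glands 8 (15.7%, others 13.2%).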
